A study of Mus musculus with 10 samples.

Results

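Fibroblasts keep a record of the body site they came from in the transcription factors they express, and 10 genes of that kind outside the Hox clusters are described here: Tbx4, Tbx5, Tbx15, Tbx18, Pitx1, Hand2, Irx3, Irx5, Shox2 and En1. Every array feature annotated with 1 of these symbols was taken, which gave 19 of the 62976 features on the array and 10 of the 20738 genes named there. En1 has 10 features and each of the other 9 genes has 1. Cy3-labelled total RNA from cultured mouse cells had been hybridised to 10 Agilent arrays of 1 colour.

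The 10 arrays fall into 3 groups. Cells converted to an embryonic Sertoli-like state (induced embryonic Sertoli-like cells, ieSCs) were on 8 arrays, 4 with cells derived from female tail tip fibroblasts (TTFs) and 4 with cells derived from mouse embryonic fibroblasts (MEFs), and unconverted MEFs were on 2. Sertoli cells are the somatic cells that surround germ cells in the testis tubules. Sox9, Gata4, Dmrt1, Wt1 and Nr5a1 were the 5 transgenes of the ieSCs, and the MEFs carried none of them. All 3 groups are listed with a congenic background homozygous for M2rtTA at the Rosa26 locus, a transactivator that works in the presence of doxycycline, and all were cultured for 2 weeks without doxycycline. Those 2 weeks are either time after doxycycline or time in culture, so earlier doxycycline may not be shared by all groups. The arrays carry 5 source names with 2 arrays each, names 1 and 2 for either kind of ieSC and a single name for MEFs. An array is called below by its name number and a letter given in listing order, such as 2b, and the letters pair nothing across groups. Whether arrays of a name came from separate cultures is not stated, so the p-values measure the spread between these arrays, part of which may be technical. MEFs have a single name, so the spread between names was estimated from the ieSCs alone and was taken to hold for MEFs. No unconverted TTF was among the arrays, so in TTF-derived ieSCs the cell of origin and the conversion cannot be told apart. The labels give neither the number of clones or animals behind a culture nor the part of the embryo from which the MEFs were taken.

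All 10 genes encode DNA-binding proteins that divide the embryo into territories. T-box proteins bind DNA through the T-box domain, and Tbx5 and Tbx4 are needed for outgrowth of the forelimb and the hindlimb, with Pitx1 acting upstream of Tbx4 in the hindlimb. Hand2 marks the posterior side of the limb bud, Irx3 and Irx5 act in its early proximal and anterior part, Shox2 acts in its proximal skeleton, and En1 marks its ventral ectoderm and a lineage of dermal fibroblasts. Several of them also work elsewhere: Tbx5, Hand2, Tbx18 and Shox2 in the heart, Irx3 and Irx5 in the heart and nervous system, and En1 in the midbrain and hindbrain.

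The deposited values are log2 intensities that had been normalised between arrays, with no detection flags. The 40th percentile of an array lay between 4.99 and 5.02, and features below it are called dim, or the dim end of an array. Against a dim level a log2 difference is what was read on the arrays, and it does not measure a ratio of transcripts. Levels are compared between groups for a feature and never between features. The labels were first set against cell markers. Of the 16650 genes tested, 23.6% were lower and 25.9% higher in ieSCs than in MEFs. Fibroblast markers were lower in ieSCs for 9 of 15 genes tested, and the mean level of the list was 11.87 to 12.69 on TTF-derived ieSC arrays, 11.96 to 12.23 on MEF-derived ieSC arrays and 16.26 to 16.3 on MEF arrays. Of 18 tested markers of embryonic Sertoli cells, 10 were higher and 6 lower in ieSCs. Dhh, a hedgehog ligand of Sertoli cells, and Tesc were among the higher ones. Of the 5 transgene factors, tested feature by feature, Wt1 alone was higher, by 5.6 on the log2 scale. The other transgene factors were lower in ieSCs. Sox9 differed by -3.46 to -3.32 over its 10 features, Gata4 by -1.9, Nr5a1 by -0.68 and Dmrt1 by -0.5.

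Promoter sequences (RefSeq, GRCm38.p6, 250 bases before to 50 after the annotated start) were at hand for 6 of the 10 genes: Tbx4, Tbx18, Hand2, Irx3, Shox2 and En1. The sequence of the gene that was higher in ieSCs is printed beside those of 2 genes that were much lower, so that the promoters of genes that moved in opposite directions can be compared. They lie at chr9:87731211-87731510 on the minus strand (Tbx18), at chr8:57320733-57321032 on the plus strand (Hand2) and at chr8:91801605-91801904 on the minus strand (Irx3), and are written 5′ to 3′ along the gene with each CG dinucleotide in capitals.
Tbx18: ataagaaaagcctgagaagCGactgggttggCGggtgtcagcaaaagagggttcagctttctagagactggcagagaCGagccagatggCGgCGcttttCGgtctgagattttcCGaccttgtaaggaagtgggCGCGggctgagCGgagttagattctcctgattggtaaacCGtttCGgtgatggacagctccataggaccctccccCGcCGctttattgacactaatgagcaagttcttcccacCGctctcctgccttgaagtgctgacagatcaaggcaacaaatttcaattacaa
Hand2: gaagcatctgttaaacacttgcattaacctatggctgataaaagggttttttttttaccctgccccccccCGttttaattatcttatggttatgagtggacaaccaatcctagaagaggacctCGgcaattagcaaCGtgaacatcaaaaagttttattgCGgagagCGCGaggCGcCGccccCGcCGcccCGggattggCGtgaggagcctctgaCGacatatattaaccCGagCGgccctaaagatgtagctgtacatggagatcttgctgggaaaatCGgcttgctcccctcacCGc
Irx3: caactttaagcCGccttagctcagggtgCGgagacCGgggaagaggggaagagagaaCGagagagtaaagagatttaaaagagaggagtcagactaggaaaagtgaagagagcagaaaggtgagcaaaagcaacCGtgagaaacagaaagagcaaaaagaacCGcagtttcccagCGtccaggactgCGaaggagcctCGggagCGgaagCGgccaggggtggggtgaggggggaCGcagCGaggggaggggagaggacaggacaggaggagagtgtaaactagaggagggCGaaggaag

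The window of Tbx18 holds 15 CG dinucleotides, that of Hand2 17 and that of Irx3 14, against a median of 7 over 32851 RefSeq promoter windows of the same length. By this count the promoter of the gene that was higher in ieSCs lay between those of both genes that were lower. En1 held 23, Shox2 11 and Tbx4 8. At least as many CG dinucleotides as in Tbx18 were present in 34.6% of all windows, and at least as many as in En1 in 21.5%. A set of short motifs was also searched on both strands with no mismatch: TCACAC, a core of T-box sites, TAATTA, a core of homeodomain sites, and ACATGT, a palindrome bound by Iroquois proteins. TCACAC was found in the En1 window and in 14.5% of all windows, TAATTA in the Hand2 window and in 5.29% of all windows, and ACATGT in none of the 6 windows and in 5.28% of all windows. A match or its absence describes the letters of these windows and nothing more.

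Against MEFs, the ieSCs had lower levels of 8 of the 10 genes and a higher level of 1, Tbx18, while En1 did not pass the test (adjusted p = 0.0963). The differences that passed ran from -9.23 for Tbx15 to 2.23 for Tbx18 on the log2 scale. For 10 of 10 genes the 8 ieSC arrays did not overlap the 2 MEF arrays. Each kind of ieSC on its own also had 8 genes lower and Tbx18 higher. The background is broad: of the 16650 genes tested, 23.6% were lower in ieSCs, 25.9% were higher and 53.7% had groups that did not overlap. For TTF-derived ieSCs 21.9% were lower and 23.3% higher than in MEFs, and for MEF-derived ieSCs 24% were lower and 27.2% higher. The median log2 difference of the 10 genes was -5.8, and that of all genes tested 0.09. A gene was kept for testing if it stood above the 40th percentile on at least 2 arrays, and Tbx4, Tbx5, Tbx15, Pitx1, Irx3 and En1 met that through the MEF arrays, so a difference was built into their being tested. RNA from a whole culture cannot separate fewer cells that express a gene from less of its RNA in each cell.

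**Figure D1:**
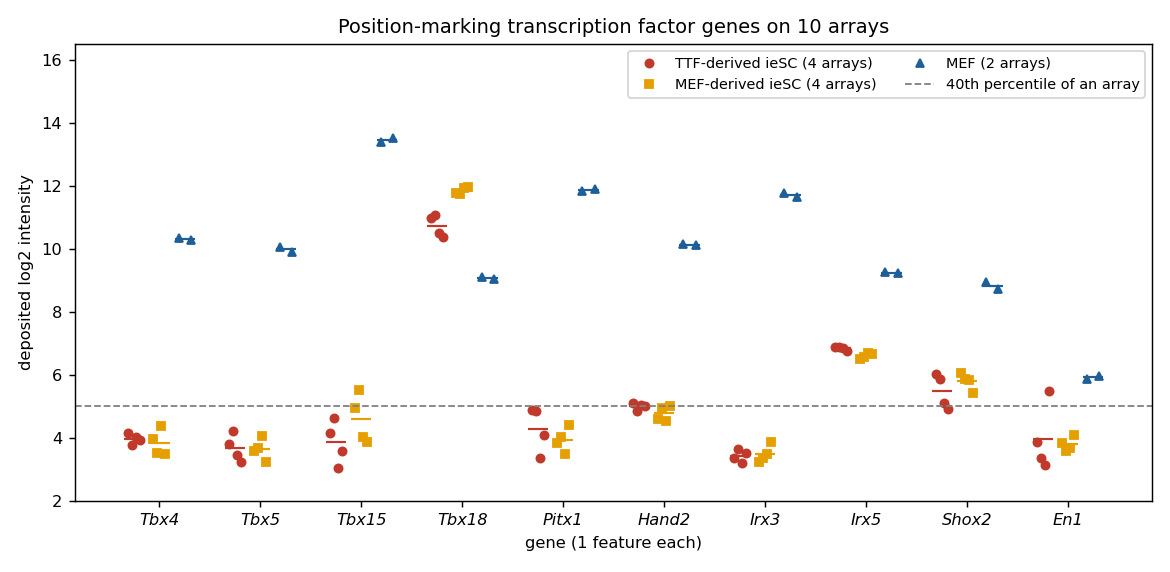
Deposited log2 intensity of each of the 10 genes (horizontal axis, 1 feature a gene) on every array, with circles for TTF-derived ieSCs, squares for MEF-derived ieSCs, triangles for MEFs, short lines for group means and a dashed line for the 40th percentile of an array. The ieSC arrays lie below both MEF arrays for 9 genes and above them for Tbx18, and Irx5 stays above the dashed line on all 10 arrays.

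The hindlimb factors Pitx1 and Tbx4 were both at the dim end of every ieSC array. Pitx1, a paired-type homeodomain factor that gives the hindlimb its identity, read 4.87, 4.85, 3.35 and 4.09 in TTF-derived ieSCs and 3.83, 4.02, 3.47 and 4.39 in MEF-derived ieSCs, against 11.84 and 11.89 in MEFs. The 2 MEF arrays were within 0.1 of each other, and no ieSC array came near them. Pitx1 fell by 7.76 ± 0.54 on the log2 scale (SE, adjusted p = 2.53e-06). Tbx4, which drives hindlimb outgrowth, read 4.16, 3.77, 4.01 and 3.94 in TTF-derived ieSCs and 3.96, 3.53, 4.38 and 3.49 in MEF-derived ieSCs, against 10.33 and 10.29 in MEFs. It fell by 6.41 ± 0.41 (adjusted p = 1.36e-06), and the spread within either ieSC group was small beside that gap. With values under the 40th percentile set to that percentile, which removes differences within the dim end, the differences were -6.86 for Pitx1 and -5.31 for Tbx4.

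The forelimb and heart factor Tbx5 was dim in ieSCs, as its hindlimb paralogue was. It read 3.80, 4.21, 3.46 and 3.22 in TTF-derived ieSCs and 3.58, 3.68, 4.06 and 3.22 in MEF-derived ieSCs, against 10.07 and 9.91 in MEFs, and fell by 6.34 ± 0.41 (adjusted p = 1.59e-06). MEFs thus had both the forelimb and the hindlimb factor well above the dim end, and none of the 8 ieSC arrays had either. Hand2, a basic helix-loop-helix factor of the posterior limb bud and the heart, read 5.09, 4.85, 5.05 and 5.02 in TTF-derived ieSCs and 4.60, 4.95, 4.54 and 5.00 in MEF-derived ieSCs, against 10.14 and 10.13 in MEFs. The ieSC arrays lay around the 40th percentile, with 2 TTF-derived arrays above it, and the fall was 5.25 ± 0.25 (adjusted p = 2.02e-07). Set at the 40th percentile, the differences were -4.98 for Tbx5 and -5.12 for Hand2.

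Tbx15, a T-box factor of limb and trunk mesenchyme that acts in the skeleton and in the dermis of the back, had the largest fall of the 10 genes. It read 4.16, 4.62, 3.05 and 3.58 in TTF-derived ieSCs and 4.95, 5.52, 4.02 and 3.86 in MEF-derived ieSCs, against 13.39 and 13.51 in MEFs. The fall was 9.23 ± 0.56 (adjusted p = 1.01e-06), or 8.38 with the dim end set at the 40th percentile. Array 1b of MEF-derived ieSCs was the single ieSC array above that percentile. Within both kinds of ieSC, the arrays of name 2 were lower than those of name 1, by means of 3.32 against 4.39 in TTF-derived cells and 3.94 against 5.23 in MEF-derived cells.

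Tbx18, which acts in the epicardium, the sinus node, the ureter mesenchyme and the anterior part of each somite, moved the other way. It read 10.99, 11.06, 10.50 and 10.37 in TTF-derived ieSCs and 11.77, 11.73, 11.92 and 11.96 in MEF-derived ieSCs, against 9.09 and 9.03 in MEFs. All 3 groups were well above the dim end, and none of them overlapped another. Tbx18 rose by 2.23 ± 0.19 on the log2 scale in ieSCs, a fold change of 4.68 (adjusted p = 9.53e-06). The rise was 1.67 ± 0.21 in TTF-derived ieSCs (adjusted p = 0.000145) and 2.79 ± 0.21 in MEF-derived ieSCs (adjusted p = 4e-06), and both were measured against the same 2 MEF arrays.

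The Iroquois homeodomain factors Irx3 and Irx5, which lie near each other on chromosome 8, both fell but to different extents. Irx3 read 3.36, 3.65, 3.21 and 3.53 in TTF-derived ieSCs and 3.23, 3.37, 3.47 and 3.86 in MEF-derived ieSCs, against 11.78 and 11.63 in MEFs. It fell by 8.24 ± 0.26 (adjusted p = 2.32e-08), or 6.70 with the dim end set at the 40th percentile. Every ieSC array was in the dim end for Irx3, and none was for Irx5. Irx5 read 6.88, 6.87, 6.85 and 6.76 in TTF-derived ieSCs and 6.50, 6.55, 6.70 and 6.66 in MEF-derived ieSCs, against 9.25 and 9.23 in MEFs. It fell by 2.52 ± 0.10, a fold change of 5.72 (adjusted p = 7.35e-08).

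Shox2, a homeodomain factor of the proximal limb skeleton and the sinus node, read 6.04, 5.88, 5.10 and 4.92 in TTF-derived ieSCs and 6.07, 5.88, 5.84 and 5.42 in MEF-derived ieSCs, against 8.93 and 8.73 in MEFs. It fell by 3.19 ± 0.34, a fold change of 9.1 (adjusted p = 4.74e-05). Most ieSC arrays stayed above the 40th percentile, with the exception of 2b of TTF-derived cells. In TTF-derived ieSCs name 2, with a mean of 5.01, was lower than name 1, with a mean of 5.96.

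En1, a homeodomain factor of the ventral limb ectoderm and of a dermal fibroblast lineage, was measured by 10 features that name the same transcript; whether they are repeat spots of 1 probe was not checked, since probe names are not used here. Over the 10 features and 4 arrays of TTF-derived ieSCs the levels ran from 2.70 to 5.47 with a median of 3.60, over those of MEF-derived ieSCs from 3.05 to 4.38 with a median of 3.60, and over those of the MEFs from 5.78 to 6.13 with a median of 5.89. MEFs stood above the 40th percentile in 20 of 20 values, TTF-derived ieSCs in 1 of 40 and MEF-derived ieSCs in 0 of 40. The exception was array 2b of TTF-derived ieSCs on 1 feature, and that feature was the one chosen for the gene because it had the highest mean over all arrays. On it the difference was -2.04 ± 0.92 (adjusted p = 0.0963), with a 95% interval of -4.11 to 0.04.

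Tested feature by feature over all 42617 features kept, 9 of the 10 En1 features were lower in ieSCs, and the chosen one had an adjusted p of 0.0545. The log2 differences of the 10 features ran from -2.49 to -2.04. As the mean of its 10 features En1 differed by -2.31 ± 0.14 (adjusted p = 8.68e-07), and on the chosen feature without array 2b it differed by -2.31 ± 0.34 (adjusted p = 0.000632). Without array 2a of the same cells it passed as well (-1.79, adjusted p = 0.034). The direction was the same on all 10 features, and the call on the chosen feature changed with 1 array. All 10 features read the same RNA samples, so their agreement adds no samples to the test. MEF levels of about 5.9 are themselves little above the dim end.

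**Figure D2:**
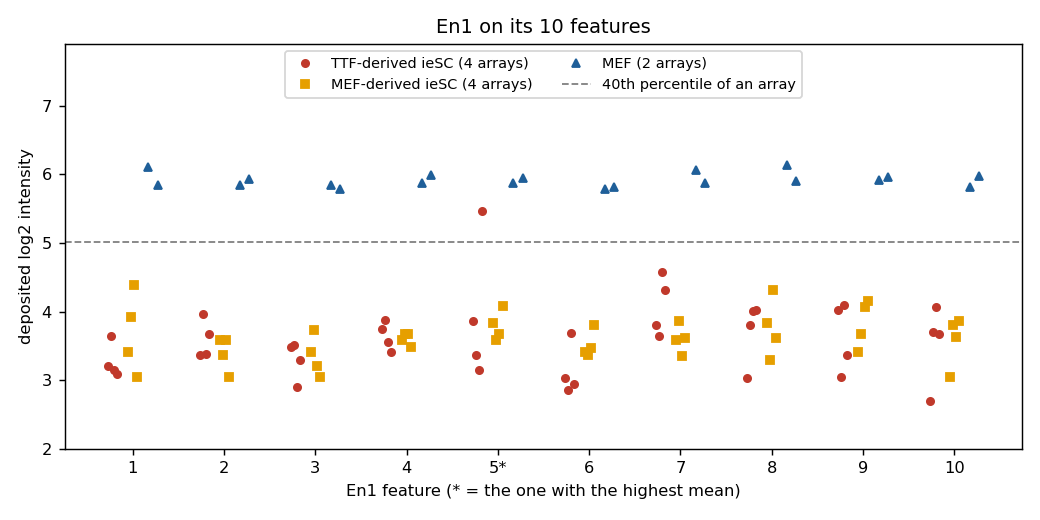
Deposited log2 intensity of En1 on each of its 10 features (horizontal axis, with a star at the feature that stood for the gene), with circles for TTF-derived ieSCs, squares for MEF-derived ieSCs, triangles for MEFs and a dashed line for the 40th percentile of an array. MEF values lie between 5.78 and 6.13 on all features, and a single ieSC value, at 5.47, rises above the dashed line.

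Between the ieSCs of different origin, 1 of the 10 genes differed, where 36% of all genes tested did. Tbx18 was lower in TTF-derived than in MEF-derived ieSCs by a log2 difference of -1.12 ± 0.17 (adjusted p = 0.000846), a fold change of 2.17, with 4 of 4 TTF-derived arrays below all 4 MEF-derived ones. This is also the test of whether the rises of Tbx18 against MEFs differ. With the arrays of each name averaged first, which leaves 2 samples in each ieSC group, the adjusted p was 0.0615. Irx5 did not overlap between the groups either, at 6.84 ± 0.05 in TTF-derived and 6.60 ± 0.09 in MEF-derived ieSCs (SD, n = 4 each), and its difference of 0.24 ± 0.09 did not pass (adjusted p = 0.0687). Groups without overlap made up 2 of the 10 genes and 48.3% of all genes tested.

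For the other 8 genes the interval of the difference shows what these arrays could and could not exclude. It was narrowest for Hand2, from -0.27 to 0.73, and for Irx3, from -0.58 to 0.49. Tbx4 had an interval of -0.69 to 0.95, Tbx5 of -0.80 to 0.87 and Shox2 of -1.01 to 0.37. It was wider for Pitx1, from -0.73 to 1.46, for Tbx15, from -1.87 to 0.40, and for En1, from -1.69 to 2.02. Of these genes only Shox2 was mostly above the dim end in ieSCs, so for the rest the intervals describe dim features on which a difference of low transcript amounts might not be seen.

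**Figure D3:**
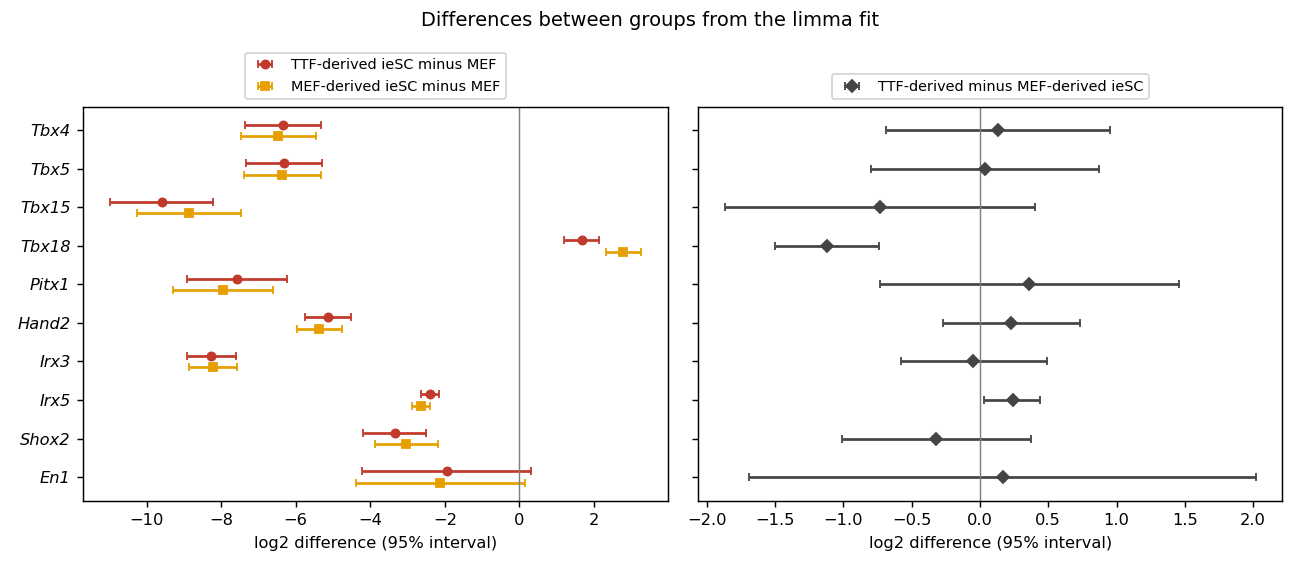
Log2 differences from the limma fit with 95% intervals for the 10 genes: left, TTF-derived (circles) and MEF-derived ieSCs (squares) minus MEFs; right, TTF-derived minus MEF-derived ieSCs, on a narrower scale. On the left the intervals lie below 0 for 8 genes, above 0 for Tbx18 and across 0 for En1. On the right Tbx18 stands apart at -1.12, and the interval of Irx5, from 0.03 to 0.44, also lies clear of 0.

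Relatives in the T-box, Pitx, Hand, Iroquois and engrailed families were set beside the 10 genes. Of 21 paralogues listed, 20 had a feature and 17 were tested: 6 were lower in ieSCs than in MEFs, 0 were higher, and their median log2 difference was 0. The 6 were Tbx1, Tbx2, Tbx3, Tbx20, Irx1 and Irx2. Tbx2 and Tbx3, relatives of Tbx4 and Tbx5 that repress transcription and pattern the limb and heart, fell by 1.93 ± 0.18 and 3.43 ± 0.13 (adjusted p = 1.53e-05 and 4.73e-08). Unlike Tbx4 and Tbx5 they kept levels above the dim end in ieSCs: Tbx3 averaged 7.82 in TTF-derived and 9.09 in MEF-derived ieSCs and 11.89 in MEFs, and Tbx2 averaged 6.82 in TTF-derived and 6.90 in MEF-derived ieSCs and 8.79 in MEFs. Tbx1, a factor of the pharyngeal arches, fell by 7.18 ± 0.41 (adjusted p = 6.11e-07). Tbx20, a heart factor, fell by 3.20 ± 0.22 (adjusted p = 2.21e-06) and averaged 6.35 in MEFs, not far above the dim end. Tbx10 missed the threshold in ieSCs as a whole, at 0.38 ± 0.14 (unadjusted p = 0.0273, adjusted p = 0.0544), and was higher in MEF-derived ieSCs set against MEFs, by 0.56 ± 0.16 (adjusted p = 0.0148). In the fit over all features its 1 feature passed as higher in ieSCs, and so did 1 of the 2 features of Tbx6. Mga, which carries both a T-box and a helix-loop-helix domain, differed by -0.45 ± 0.17 in ieSCs (adjusted p = 0.0502), passed as lower on its 1 feature in the fit over all features, and was lower in MEF-derived ieSCs set against MEFs (-0.62 ± 0.18, adjusted p = 0.0189). Between ieSCs of the 2 origins neither passed, Tbx10 at -0.37 (adjusted p = 0.0527) and Mga at 0.34 (adjusted p = 0.112). Tbx21, Tbx22, Eomes, Tbr1 and Pitx3 did not pass, with log2 differences from -0.09 to 0.46, and Tbx19, T and Hand1 had features too dim to be tested.

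The other Iroquois genes differed among themselves. Irx1 fell by 9.86 ± 1.22 (adjusted p = 0.000123), and its levels were 4.07, 3.58, 4.09 and 4.38 in TTF-derived ieSCs and 4.14, 4.31, 7.0 and 3.90 in MEF-derived ieSCs, against 14.25 and 14.34 in MEFs. Array 2a of MEF-derived ieSCs stood alone above the dim end. Irx2 fell by 7.73 ± 0.32 (adjusted p = 9.21e-08) on the feature taken for it, and fell by 3.78 on its other feature. Irx4 and Irx6 did not pass, with log2 differences of 0.60 and 0.23, and had group means of 4.80 to 5.89, near the dim end. En2 did not pass either, with group means of 6.28 to 6.50.

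**Figure D4:**
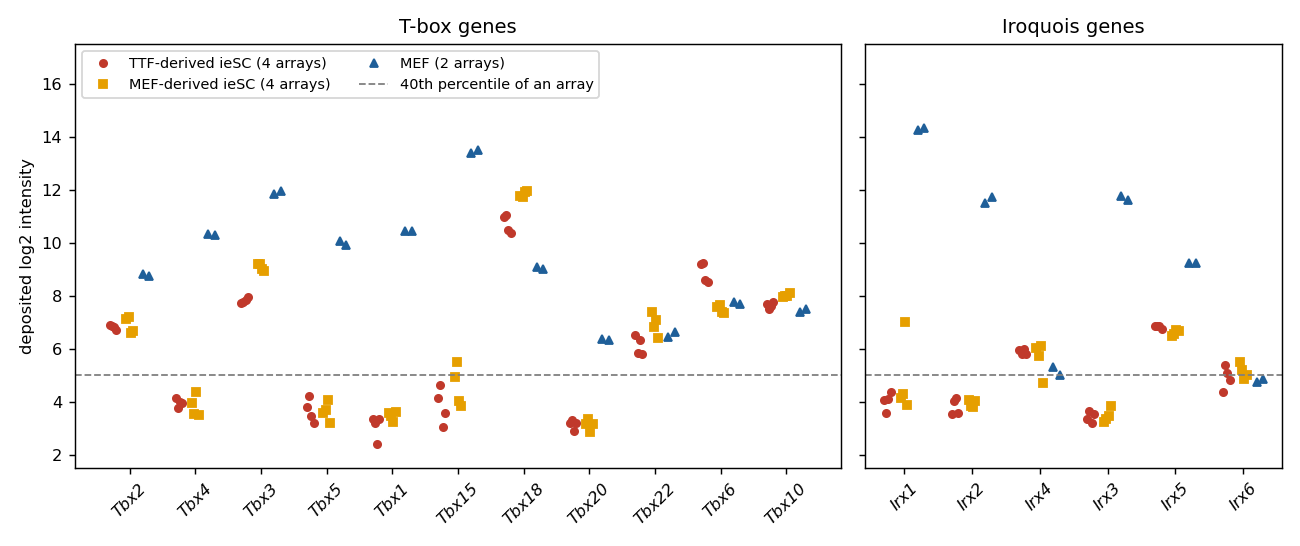
Deposited log2 intensity of the T-box genes (left) and the Iroquois genes (right), with circles for TTF-derived ieSCs, squares for MEF-derived ieSCs, triangles for MEFs and a dashed line for the 40th percentile of an array. Tbx18 lies higher on all ieSC arrays than on either MEF array, and Irx1, Irx2 and Irx3 lie near or below the dashed line on the ieSC arrays, apart from 1 array at 7.0 for Irx1.

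Between the origins 2 paralogues differed. Tbx3 was lower in TTF-derived than in MEF-derived ieSCs by a log2 difference of -1.27 ± 0.11 (adjusted p = 3.41e-05), as Tbx18 was. Tbx6, a factor of the presomitic mesoderm, was higher by 1.40 ± 0.19 (adjusted p = 0.000395). It read 9.20, 9.24, 8.58 and 8.54 in TTF-derived ieSCs and 7.57, 7.67, 7.40 and 7.34 in MEF-derived ieSCs, against 7.78 and 7.69 in MEFs, and against MEFs it rose by 1.15 ± 0.23 in TTF-derived ieSCs (adjusted p = 0.00252) and differed by -0.24 ± 0.23 in MEF-derived ieSCs (adjusted p = 0.415).

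Other genes of limb and body patterning were counted from lists. The same filter applied, so a gene dim on all ieSC arrays was tested through the MEF arrays, with a difference built in. Of all genes tested, 23.6% were lower and 25.9% higher in ieSCs, with a median log2 difference of 0.09. Of 27 tested transcription factors of limb mesenchyme, 15 were lower and 1 was higher in ieSCs, with a median log2 difference of -1.35. The members with the smallest p were Msx2, Twist1, Prrx2 and Lhx2. Prrx2, a homeodomain factor of limb bud mesenchyme, fell by 9.92 ± 0.50 and Twist1, a helix-loop-helix factor of the same cells, fell by 8.47 ± 0.43, while Msx2 fell by 2.63 ± 0.13 and averaged 7.04 in TTF-derived and 7.27 in MEF-derived ieSCs against 9.78 in MEFs. Of 18 tested signalling genes of the limb bud, 12 were lower and 2 higher, with a median of -1.44. Fgf10, the mesenchymal growth factor whose expression Tbx5 is known to promote in the forelimb bud, fell by 4.18 ± 0.23 (adjusted p = 4.86e-07), and its 10 features ran from -5.57 to -4.18. Wnt5a fell by 7.55 ± 0.23 and Rspo2, an enhancer of Wnt signalling, fell by 9.66 ± 0.39. Grem1, a secreted BMP antagonist downstream of Hand2 and sonic hedgehog in the limb bud, fell by 9.54 ± 0.52. In either kind of ieSC Twist1, Rspo2 and Grem1 averaged between 2.82 and 3.98, at the dim end. Isl1, not called on the feature taken (-0.92), had 9 features from -1.59 to -0.92, of which 8 were called. Sall4 (0.33 to 1.88) and Gdf5 (-1.61 to 0.5), not called on the feature taken, each had 1 of 2 features called.

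Position factors of the head and pharynx moved both ways, with 10 of 16 tested genes lower and 4 higher and a median of -2.44. Lhx6, counted as lower on the feature taken (-2.94), had a second feature at 1.4, and both were called. Pax3, a factor of the neural crest and dorsal somite, rose by 3.63 ± 0.14 (adjusted p = 6.1e-08) and Tfap2a, a factor of neural crest and surface ectoderm, by 3.11 ± 0.13 (adjusted p = 1.06e-07). Six2 fell by 7.62 ± 0.36, and over its 3 features the differences ran from -7.62 to -0.93. Foxc2 fell by 5.33 ± 0.26 and averaged 3.80 in TTF-derived and 7.16 in MEF-derived ieSCs against 10.81 in MEFs. Of 17 tested factors of the trunk and viscera, 10 were lower and 2 higher, with a median of -0.80. Meox2, Pax1 and Tcf21 fell by 7.51, 4.78 and 2.85, and Foxf2 rose by 3.06 ± 0.19. Six2, Meox2, Pax1 and Tcf21 averaged between 3.81 and 4.80 in either kind of ieSC, at the dim end. In all 4 lists more genes were lower than higher, and none of them was lower throughout.

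Markers of other cell types that a fibroblast culture could hold, or that use some of the same factors, were followed. The same filter applied to them, and over all genes tested 23.6% were lower and 25.9% higher in ieSCs. All 12 macrophage markers tested were lower in ieSCs, with a mean level of 5.65 to 5.88 on TTF-derived ieSC arrays, 5.74 to 5.96 on MEF-derived ieSC arrays and 11.72 on both MEF arrays. Chondrocyte markers were lower for 8 of 11 genes and higher for 1, with mean levels of 6.71 to 7.02 in TTF-derived ieSCs, 7.0 to 7.18 in MEF-derived ieSCs and 8.84 to 8.88 in MEFs. Their part in the differences of the 10 genes was not tested. Cardiomyocyte markers, relevant to Tbx5, Hand2, Tbx18 and Shox2, were lower for 6 of 11 and higher for 4, with mean levels of 5.36 to 5.67 in TTF-derived ieSCs, 5.70 to 6.08 in MEF-derived ieSCs and 6.41 to 6.55 in MEFs. Of the 14 with a feature, 5 were above the 40th percentile on no array in each kind of ieSC and 4 on no array of MEFs. The 4 with the smallest p were lower: Tnni3 differed by -2.5, Actc1 by -2.73, Myh6 by -1.97 and Tnnt2 by -6.37. The 4 that were higher, named after their values were seen, were Nppb (2.16), Myl7 (2.01), Myl3 (0.98) and Nkx2-5 (0.47). Keratinocyte markers were higher for 3 of 8 and lower for 1, and endothelial markers higher for 2 of 7 and lower for 2. These counts rest on 1 feature a gene, and Kdr, not called on the feature taken (-0.20), had 11 features from -3.38 to -0.20, of which 10 were called. On the features taken, none of 6 markers of sympathetic neurons and Schwann cells passed by limma in ieSCs as a whole, and 1 had an unadjusted p under 0.05. That one was Erbb3, which differed by 0.50 ± 0.19 (unadjusted p = 0.0263, adjusted p = 0.0526), was called on its 1 feature in the fit over all features, and was higher in TTF-derived ieSCs set against MEFs (0.60 ± 0.21, adjusted p = 0.0392). Ngfr, not called on the feature taken (-1.44), had 10 features from -2.82 to -1.44, of which 8 were called.

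The genes nearest to each of the 10 on the chromosome were then read, taking up to 2 RefSeq genes with a feature on either side. Between 0 and 14 other RefSeq genes lay in between, so a neighbour here need not be adjacent. This gave 38 genes, of which 33 were tested, 11 were lower (Irx3 and Irx5, each a neighbour of the other, among them) and 5 higher in ieSCs, with a median log2 difference of -0.34. Over all genes tested, 23.6% were lower and 25.9% higher, so a called neighbour is nothing unusual. Tbx2 is the gene next to Tbx4, Tbx3 lies near Tbx5 with 2 RefSeq genes between them, and both fell, as given above. On the side of Tbx18 where 9 RefSeq genes lie between, Nt5e, which encodes the ecto-enzyme CD73, rose by 5.46 ± 0.24 (adjusted p = 1.18e-07). Snx14, with 10 between, rose by 0.28 ± 0.10 (adjusted p = 0.0467). Cep162, on the other side with 2 between, differed by 0.34 ± 0.13 without passing (adjusted p = 0.0557). Around the Irx3 and Irx5 cluster, Mmp2, a secreted matrix metalloproteinase, fell by 8.66 ± 0.59 (adjusted p = 2.18e-06), while Irx6 and Fto did not pass (adjusted p = 0.691 and 0.0887). All 4 neighbours of Pitx1 missed the threshold, with log2 differences of -0.34 to 0.20. The other neighbours that passed were Bcas3 (0.89), Sap30 (1.62) and Insig2 (2.13), which rose, and Brip1 (-0.99), Rbm19 (-0.44), Wars2 (-0.75), Hpgd (-3.11), Mlf1 (-3.14) and Marco (-2.26), which fell. Of the 33 tested neighbours, 17 did not pass in either direction.

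Finally, for each of the 10 genes the 3 genes with the most similar pattern over the 5 source names were taken, by the root mean square difference of the name means after centring each gene. For Tbx18 they were Dmrta2 (0.124 log2 units), Birc7 (0.145) and Dusp4 (0.156). Dmrta2, a member of the Dmrt family of transcription factors, had name means of 8.89 and 8.20 in TTF-derived ieSCs, 9.48 and 9.50 in MEF-derived ieSCs and 6.60 in MEFs, and Tbx18 had 11.02 and 10.43 in TTF-derived ieSCs, 11.75 and 11.94 in MEF-derived ieSCs and 9.06 in MEFs. The 3 genes nearest Tbx5 were Hoxb7, Apod and Slc2a10, and those nearest Tbx4 were Kcne4, Stab1 and Cx3cr1. Pitx1 had Nectin1, Wnt5a and Cthrc1, Tbx15 had Prrx2, Lrrn3 and Thbs2, Hand2 had Gldn, Eif4e3 and Adcy5, and Irx3 had Egfl6, Adam23 and C1qa. Irx5 had Gm14461, Fzd1 and Asap3, Shox2 had Olfml3, Foxa1 and Ifi207, and En1 had Vstm2a, Zfp385b and Boc. Stab1, Cx3cr1 and C1qa are genes of macrophages, and Prrx2 and Wnt5a also stand in the limb lists above. With 5 points, of which 1 is the MEFs, the measure is led by the gap between ieSCs and MEFs, and the likeness is a description of these arrays.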

How the data were processed

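The authors deposited 1 table of log2 array intensity for 62976 features on 10 arrays. Limma, with no version, is named per the submitters' processing notes. Sorted, the 10 columns agree to within 0.0379 from the 40th percentile up, as after quantile normalization. A log base of 2 was inferred from the range of 0.29 to 19.02. How background was corrected was not given in the sources used here. Gene symbols came from the platform annotation (31465 features with 1 symbol, 0 with several, 31511 with none) and were updated through RefSeq (GRCm38.p6) for 3282 features, with accessions of 29036 matched.

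Features above the 40th percentile on at least 2 arrays were kept (42617), and the kept feature with the highest mean stood for each of 16650 genes. A mean for each of the 3 groups was fitted to all 10 arrays with limma 3.58.1 (R 4.3.3, statmod 1.5.0), with the source name as a random block (consensus correlation 0.606), and tested two-sided with Benjamini-Hochberg adjustment over all genes at 0.05. The number of arrays limits the precision, with a median SE of 0.174 for ieSC against MEF.

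The 10 genes, the lists and the tests were chosen with earlier results of these data known. The rule for names took all 10 genes and the 3 nearest patterns, and allowed up to 4 genes of each list by smallest p, paralogues with a feature and tested neighbours, of which the text names those it describes. Lhx6, Isl1, Sall4, Gdf5 and Kdr were named in addition, because their features disagreed. Alternatives covered the filter, the choice of feature, the normalization, the block, a floor for dim values, the prior and left-out arrays.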

Additional observations from a re-analysis of the deposited data

Results flagged for a closer look

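Tbx18 differed between the ieSCs of different origin in the effect measured against the same MEF arrays: TTF-derived minus MEF-derived ieSCs gave -1.12 on the log2 scale, by the test of the difference itself. The log2 levels were 10.73 ± 0.34 in TTF-derived ieSCs and 11.85 ± 0.11 in MEF-derived ieSCs (SD, n = 4 each), beside 9.06 ± 0.04 in MEFs (SD, n = 2). Within TTF-derived ieSCs the arrays of name 1 (10.99 and 11.06) lay above those of name 2 (10.50 and 10.37), and each lay below every MEF-derived array. Within either kind of ieSC, Dixon's test singled out no array for any of the 10 genes. The MEFs, with n = 2, were not put to that test. With n = 4 in a group the test can miss an array that matters. Array 2b of TTF-derived ieSCs was not singled out for En1, although leaving it out changed the call of that gene.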

How the results depend on the processing

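Against MEFs, Tbx4, Tbx5, Tbx15, Tbx18, Pitx1, Hand2, Irx3, Irx5 and Shox2 kept their direction and their call in 24 of 24 alternatives, and no result reversed. No alternative left out the MEF name, the only one of its group. In the main fit Tbx4, Tbx5, Tbx15, Pitx1 and Irx3 met the filter through the MEF arrays, so a difference was built into their being tested. En1 passed against MEFs in 9 of the 24, with adjusted p from 8.68e-07 to 0.168 and log2 differences of -2.49 to -0.85 (-0.85 with dim values set at the 40th percentile), so 9 or 10 genes passed; leaving out array 2a or 2b of TTF-derived ieSCs, or both, was enough for En1 to pass (adjusted p = 0.034, 0.000632 and 0.000305). Between the origins the count of 1 gene became 0 with the arrays of a name averaged, 2 with no block, 2 with dim values set at the 40th percentile and 3 with the name number as a replicate block. It was 1 to 2 when arrays were left out: without both TTF-derived arrays of name 1 Shox2 also passed (-0.79, adjusted p = 0.0315), and without both MEF-derived arrays of name 2 Irx5 did (0.31, adjusted p = 0.0407). Under the replicate block Tbx15 (adjusted p = 0.0368) and Irx5 (0.0329) joined Tbx18. The name numbers are not stated to pair the ieSCs across origins: the differences of name 1 minus name 2 correlated at 0.297 over 16650 genes, with 2 pairs only. Tbx18 lost its call between the origins in 1 of 25 alternatives, the averaged names, with adjusted p from 0.000101 to 0.0615 over all 25; averaging leaves 5 samples. Over all genes 8248 differed between ieSC and MEF, and 5493 with averaged names. Falls that end in the dim end of an array are limited by signal over background: with dim values set at the 40th percentile Irx3 differed by -6.7, Tbx5 by -4.98 and Tbx4 by -5.31.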
